A study of Mus musculus with 8 samples.

Results

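The genes described here encode Id and E proteins: Id2 and Id3 of the inhibitor of DNA binding family, and Tcf3 (E2A), Tcf4 (E2-2), and Tcf12 (HEB) of the E protein family. They were chosen by name, and all 5 were found among the 29924 gene names of the arrays, with 8 probes in total. Where a gene had several probes, the one brightest on average over the arrays (mean log2 intensity) gave its main value, and the others were used as a check. All 5 genes passed the filter on dim genes, which left 15764 genes for testing.

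E proteins are basic helix-loop-helix (bHLH) factors that dimerize and bind the E-box, a short DNA motif of the form CANNTG. Id proteins have the dimerization domain but lack the basic region, so that a dimer of an Id and an E protein cannot bind DNA. In CD4 T cells, E protein activity promotes the TFH program including Cxcr5, Id2 and Id3 restrain it, and Foxp3+ Treg cells lacking Id2 and Id3 were described to enter the follicular pathway more readily. Id3 is induced by T cell receptor signals through Egr factors.

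The cells came from peripheral lymph nodes (pLN) of B6.Cg-Foxp3<tm1Mal> mice, whose Foxp3 expressing cells carry EGFP, after s.c. immunization with keyhole limpet hemocyanin (KLH) in alum. All sorts were gated on DAPI-B220-CD4+ cells, a gate against B cells and CD4- cells. Naïve CD4 T cells were sorted as GFP-PD1-GL7-, TFH cells as GFP-PD1hiGL7+, Treg cells as GFP+PD1-GL7-, and TFR cells as GFP+PD1hi, either GL7+ or GL7-. All groups share the reporter allele and the immunization; mice of both sexes, 8 to 14 weeks old, were pooled at 8 to 15 per sort, and 25 ng of RNA was labeled. One-color arrays were made of each cell type for d12 and for d25 post immunization (p.i.), 8 in total. The paper states more sorted fractions for a cell type and day than are analysed here. Its statistics section also gives fewer mice per pool, and these differences could not be resolved. The naïve gate used neither CD44 nor CD62L and therefore also admits other GFP-PD1-GL7- CD4 T cells.

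There were 2 arrays for a cell type and none repeated at the same day. A p-value therefore rests on the spread left after cell type and a day shift common to all cell types. That spread is pooled over all arrays and includes any real change between days that differs between cell types. Levels are normalized intensities in relative units (RU) with a floor of 20, and differences are on the log2 scale with the standard error (SE) of the fit. A gene was called when the Benjamini-Hochberg adjusted p from limma over all 15764 genes was below 0.05. In bulk RNA, fewer expressing cells and less RNA per cell cannot be told apart. The sort was checked on its markers. Foxp3 was at 37464 to 49591 RU in the GFP+ cells and at 65 to 356 RU in the GFP- cells, and all 6 TFH markers were called higher in TFH than in naïve cells and in TFR than in Treg cells. The d25 TFH array stood apart in B cell markers, with a sum over 8 listed genes of 17360 RU against 5828 to 10288 RU on the other 7 arrays. On that array Cd79a was at 1823 and Ms4a1 at 2743 RU, against 253 and 245 RU in d12 TFH cells, whereas Pax5 was at the floor on all arrays. Cd79b was at 6869 RU on that array, below the 7108 and 7574 RU of Treg cells. On the d12 TFH array the brightest listed B cell marker was Cd22 (6038 RU), so that Cd79b was lower there than at d25. For the 5 genes, the differences of TFH from naïve and of TFR from TFH cells are therefore also given without the d25 TFH array. Of the 23 related genes named at the end, 20 were called between TFH and naïve cells, where 46.5% of all genes were called. They were named for calls and large differences on these same arrays, so that their calls are no check on the d25 TFH array.

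Against naïve CD4 T cells, 3 of the 5 genes were called in TFH cells, namely Id3 and Tcf4 as higher and Tcf3 as lower in TFH cells, in a comparison that called 46.5% of all tested genes. Between TFR and Treg cells only Tcf4 was called, as higher in TFR cells, where 39.6% of all genes were called. Between Treg and naïve cells Id2 was called as lower and Id3 as higher in Treg cells, against 9.86% of all genes. For the difference between both follicular changes, (TFR minus Treg) minus (TFH minus naïve), Id3 alone was called, against 8.51% of all genes. None was called between TFR and TFH cells by limma, where 22.1% of all genes were called, nor between d25 and d12, where 0.0698% were called. At an unadjusted p below 0.05, 0 of the 5 genes passed between TFR and TFH cells, against 37.5% of all genes, and 1, Tcf12, between the days, against 28.8%. Without the filter on dim genes, the calls of Id2 and Id3 in Treg cells, of Tcf4 in both follicular cell types, and of Id3 for the difference between both changes were lost (adjusted p of 0.0948 to 0.137).

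**Figure D1:**
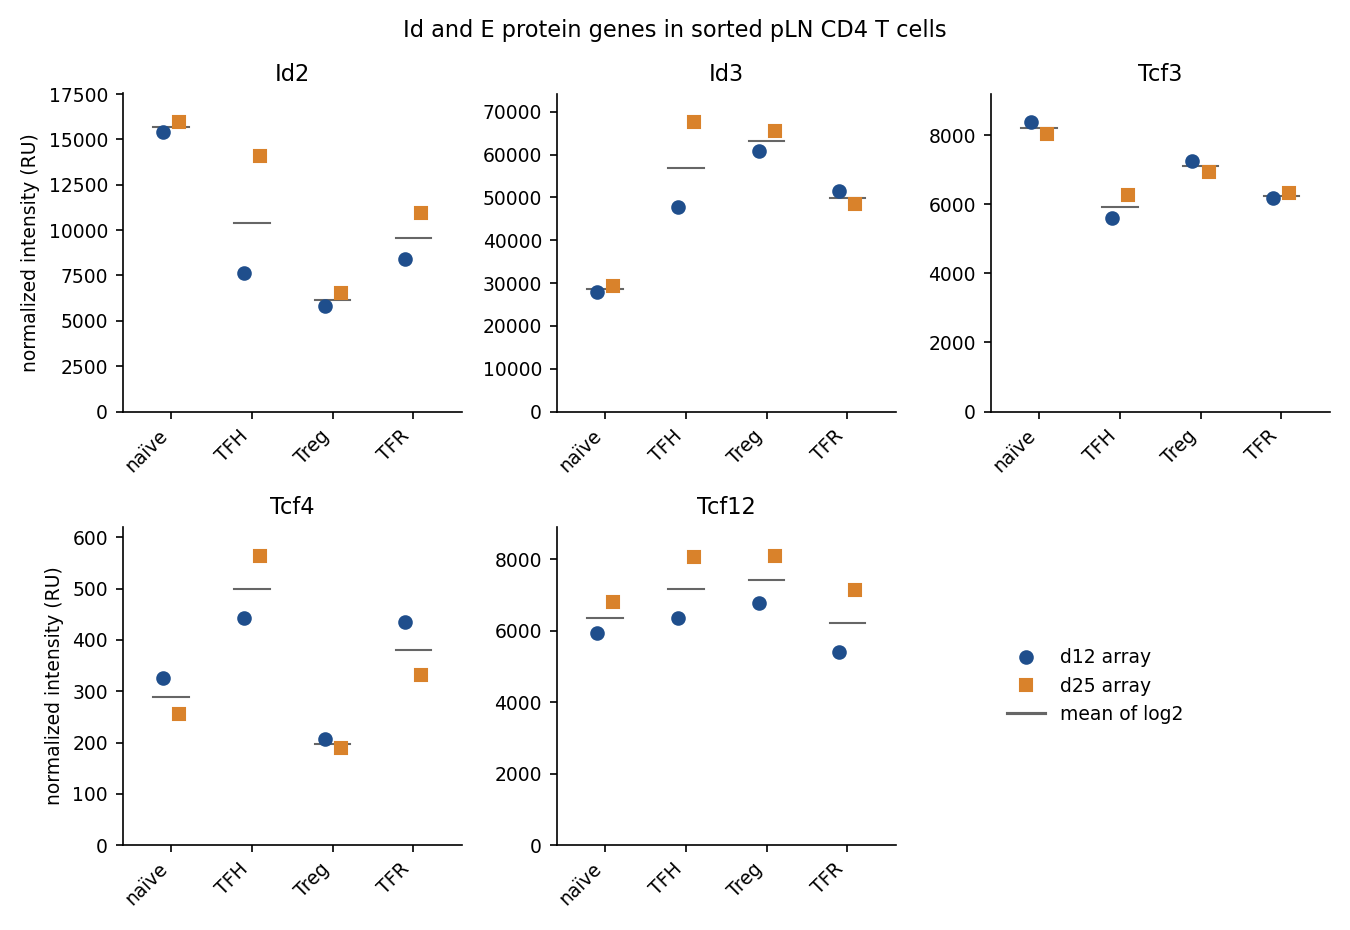
Normalized intensity (RU, linear axes starting at 0) of the brightest probe of each gene on each array, with circles for d12, squares for d25, and a bar at the mean of the log2 values of the 2 arrays. By these means, Id2 was highest and Id3 lowest in naïve cells, Treg cells showed the reverse, and the 2 TFH arrays were the farthest apart for Id2.

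Id2 and Id3 were opposite in the cell types with low PD1. Id2, whose probe lies at chr12:25778904-25778963 on the minus strand (build NCBI37), was at 15422 RU at d12 and 15937 RU at d25 in naïve cells and at 5816 and 6530 RU in Treg cells. The Treg arrays were the 2 lowest and the naïve arrays the 2 highest of all 8. The difference between Treg and naïve cells was -1.35 ± 0.22 (SE, n = 2 arrays per cell type), with an adjusted p of 0.0265 in limma. This call was lost in each of the 6 fits without 1 of the naïve, Treg, or TFR arrays (differences of -1.56 to -1.13, adjusted p of 0.0746 to 0.172), and also with slide as a block (adjusted p of 0.14) or without the day term (adjusted p of 0.058).

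In both follicular cell types Id2 lay between those levels. TFH cells had 7642 RU at d12 and 14083 RU at d25, and TFR cells had 8388 and 10923 RU. At d12 both were much closer to Treg than to naïve cells, but at d25 TFH cells were near the naïve level. The difference of TFH from naïve cells was -1.01 at d12 and -0.18 at d25, with a fitted value of -0.60 ± 0.22 (adjusted p of 0.0793 in limma). It was called with scaling of the 75th percentile alone (-0.67, adjusted p of 0.0447) and with an intensity trend (adjusted p of 0.0445). Without the d25 TFH array, which stood apart in B cell markers, it was -0.94 with an adjusted p of 0.0165, and without the d12 TFH array it was -0.25 with an adjusted p of 0.24. The cells were sorted as B220-, and the part of the B cell signal in the d25 level of Id2 was not tested.

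In Foxp3+ cells the Id2 difference had the opposite sign. TFR exceeded Treg cells by 0.53 at d12 and 0.74 at d25, and the fitted difference was 0.64 ± 0.22 (adjusted p of 0.074 in limma). It passed the threshold in the fits without either TFH array, in which the difference itself is the same and the adjusted p was 0.0211, with normexp background correction (adjusted p of 0.0482), and with an intensity trend (adjusted p of 0.0409). The contrast of both changes was 1.23 ± 0.31 with an adjusted p of 0.0842, and 1.57 with an adjusted p of 0.0335 when the d25 TFH array was left out. It also passed with normexp (adjusted p of 0.0494) and with the trend (adjusted p of 0.0403). TFR and TFH cells differed in Id2 by -0.12, with a 95% confidence interval from -0.68 to 0.45, and by 0.23 without the d25 TFH array (adjusted p of 0.362).

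Id2 is known to be abundant in NK and innate lymphoid cells. The sum of the 7 listed markers of these cells was 10613 and 10176 RU in naïve cells and 5272 to 7678 RU on the other 6 arrays, so that it was highest where Id2 was highest. Klrd1 made up the largest share in naïve cells, with 5480 and 5859 RU against 346 to 1097 RU elsewhere, and for Ncr1 no array was well above background. Other listed markers were brightest on the remaining arrays, namely Gzma in d12 TFH (2421 RU) and Klrb1c in d25 TFH cells (3084 RU). In Treg and TFR cells Il1rl1 was brightest (2681 to 4216 RU), so that the brightest marker differed between cell types. From d12 to d25, the sum rose in TFH (5272 to 7678 RU) and TFR cells (6844 to 7249 RU). It fell in naïve (10613 to 10176 RU) and Treg cells (6342 to 5695 RU), whereas Id2 was higher at d25 in each cell type. All cells were sorted as CD4+, and the part of this signal in the Id2 levels was not tested. Among all tested genes outside the 5, those most like Id2 over the 8 arrays by Pearson correlation of log2 levels were Crtam (r = 0.98), Oxnad1 (r = 0.96), and Ctsh (r = 0.94). Crtam, encoding an adhesion receptor of activated and cytotoxic T cells, was at 5381 and 4745 RU in naïve cells and at 995 and 1013 RU in Treg cells. In TFH cells it was at 1620 RU at d12 and 4119 RU at d25, and thus also near the naïve level only at d25.

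Id3 was lowest in naïve cells and higher in the other 3 cell types. Its 60-base probe covers chr4:135700075-135700249 on the plus strand (NCBI37), a span of 175 bases, and thus crosses a gap in the genome. It is shown because all Id3 values rest on it:
Id3 probe: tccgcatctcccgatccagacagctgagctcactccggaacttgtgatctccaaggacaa

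Naïve cells had 27888 RU of Id3 at d12 and 29271 RU at d25, the 2 lowest values. Treg cells had 60897 and 65547 RU, TFH cells 47705 and 67492 RU, and TFR cells 51536 and 48346 RU. Every array of these 3 cell types was therefore above both naïve arrays, and the 2 TFH arrays lay on either side of both TFR and both Treg arrays. The difference from naïve cells was 1.15 ± 0.16 for Treg cells (adjusted p of 0.0177 in limma) and 0.99 ± 0.16 for TFH cells (adjusted p of 0.00752). The TFH difference was 0.78 at d12 and 1.21 at d25, and it remained called without the d25 TFH array (0.75, adjusted p of 0.016). It just missed the threshold without the d25 naïve array (0.94, adjusted p of 0.0507). The Treg difference was not called without either naïve or either Treg array (1.09 to 1.20, adjusted p of 0.0995 to 0.122), nor with slide as a block (1.28, adjusted p of 0.0602).

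From Treg to TFR cells Id3 did not follow this course. The difference of TFR from Treg cells was -0.24 at d12 and -0.44 at d25, with a fitted value of -0.34 ± 0.16 that was not called (adjusted p of 0.151, and 0.0489 in the fits without either TFH array). The difference between both changes was -1.33 ± 0.23, with values of -1.02 at d12 and -1.64 at d25 and an adjusted p of 0.034 in limma. The call was kept without either TFH array (adjusted p of 0.0237 and 0.0409) but lost without any 1 of the other 6 arrays (-1.49 to -1.17, adjusted p of 0.101 to 0.145), and with slide as a block (adjusted p of 0.0611). TFR and TFH cells differed in Id3 by -0.19, with a 95% confidence interval from -0.60 to 0.23, and by 0.051 without the d25 TFH array (adjusted p of 0.796).

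The genes most like Id3 over the 8 arrays were Tspan13 (r = 0.97), Trim59 (r = 0.96), and Map3k8 (r = 0.96). Tspan13, a tetraspanin, was at 13714 and 16041 RU in naïve cells and at 21120 to 31425 RU on the other 6 arrays. Map3k8, a kinase upstream of ERK, was at 56 and 105 RU in naïve cells and at 273 to 567 RU elsewhere. The log2 levels of Id2 and Id3 themselves had an r of -0.66 over the 8 arrays, as a description of arrays that share cell types and days.

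**Figure D2:**
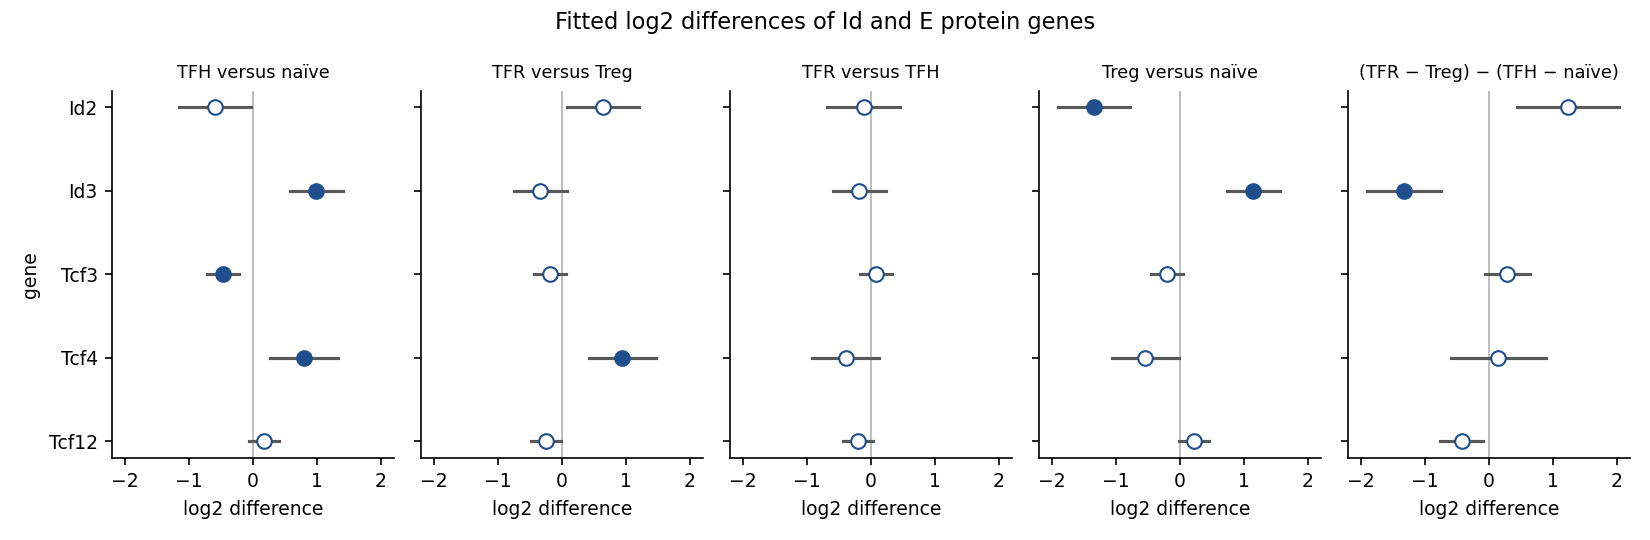
Fitted log2 differences (x axis) of the 5 genes in each comparison, with bars for the 95% confidence interval and filled points for an adjusted p below 0.05. Id2 and Id3 lay on opposite sides of 0 in the Treg versus naïve panel (-1.35 and 1.15) and in the panel of the difference between both changes (1.23 and -1.33).

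Promoters are shown for Id2 and Id3, since the E-box is the motif that E proteins bind and these genes moved in opposite directions between Treg and naïve cells. The 250 bases upstream of the annotated start are from RefSeq (GRCm38.p6), for Id2 chr12:25096093-25096342 on the minus strand and for Id3 chr4:136143572-136143821 on the plus strand. Capitals mark matches to CANNTG, which reads as the same form on both strands:
Id2 upstream: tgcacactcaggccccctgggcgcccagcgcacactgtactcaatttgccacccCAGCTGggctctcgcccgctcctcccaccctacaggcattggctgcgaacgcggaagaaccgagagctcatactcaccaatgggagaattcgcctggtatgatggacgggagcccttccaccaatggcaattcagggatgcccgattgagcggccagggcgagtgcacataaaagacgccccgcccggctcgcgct
Id3 upstream: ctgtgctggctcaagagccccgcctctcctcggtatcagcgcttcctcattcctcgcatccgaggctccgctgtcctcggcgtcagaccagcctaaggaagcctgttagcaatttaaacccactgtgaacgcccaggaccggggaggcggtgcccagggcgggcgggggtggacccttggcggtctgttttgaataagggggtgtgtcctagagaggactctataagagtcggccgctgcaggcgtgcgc

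The Id2 window held 1 match, CAGCTG at 196 bases before the start, and the Id3 window held 0. Of 32851 windows of this length in the table, 66.2% held a CANNTG and 13.0% a CAGCTG, which is 1 of the CANNTG forms. Entries were found for 4 of the 5 genes, Id2, Id3, Tcf3, and Tcf12. The window of Tcf3 held 1 match (CACTTG), and of the 3 windows of Tcf12, 2 held 1 match each (CAAGTG and CAGCTG). These are matches of letters and were not tested for binding.

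Tcf3, which encodes the E2A proteins E12 and E47, was lower in follicular cells. The brighter probe (chr10:79872639-79872698, minus strand, NCBI37) gave 8369 and 8039 RU for naïve and 5593 and 6257 RU for TFH cells. Treg cells had 7266 and 6940 RU, and TFR cells 6171 and 6332 RU. The order was the same at both days, with naïve cells highest, Treg cells next, and TFR and TFH cells lowest, and the latter differed by only 0.08 (95% confidence interval from -0.17 to 0.33, and 0.175 without the d25 TFH array). The difference of TFH from naïve cells was -0.47 ± 0.10 (adjusted p of 0.0157 in limma), and -0.57 without the d25 TFH array (adjusted p of 0.0209). The call was lost without the d12 TFH array (-0.38, adjusted p of 0.0534) and without the d12 or d25 naïve array (-0.42 and -0.52, adjusted p of 0.0991 and 0.0609). For TFR against Treg cells this probe gave -0.18 ± 0.10 (adjusted p of 0.191).

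The dimmer Tcf3 probe, at chr10:79875963-79876022, gave larger differences. Its sequence is shown because the size of the Tcf3 difference depends on the probe:
Tcf3 dimmer probe: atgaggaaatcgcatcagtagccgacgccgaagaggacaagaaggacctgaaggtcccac

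This probe was at 1233 and 1276 RU in naïve, 662 and 677 RU in TFH, 1160 and 1177 RU in Treg, and 688 and 809 RU in TFR cells. All 4 follicular arrays were below all 4 arrays of naïve and Treg cells. When every probe was fitted on its own, the difference of TFH from naïve cells was -0.91 ± 0.10 (adjusted p of 0.00246 in limma) and that of TFR from Treg cells -0.65 ± 0.10 (adjusted p of 0.00891). With the mean over both probes TFR cells were called lower than Treg cells (-0.42, adjusted p of 0.0208), so that the Tcf3 call in Foxp3+ cells depended on the choice of probe. The difference between both changes was 0.29 ± 0.14 with the brighter and 0.26 ± 0.14 with the dimmer probe, and neither was called (adjusted p of 0.275 and 0.341).

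Genes most like the brighter Tcf3 probe over the arrays were a transcript named NAP113115-1 (r = 0.99), Gm33698 (r = 0.98), and Zkscan6 (r = 0.98). Zkscan6, a zinc finger gene, had 2718 and 2828 RU in naïve and 1714 and 2043 RU in TFH cells.

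Tcf4, encoding E2-2, a factor best known from plasmacytoid dendritic cells and B cells, was measured at a low signal that was nevertheless well above background on all 8 arrays. The informative probe lies at chr18:69842843-69842902 on the plus strand (NCBI37). It was at 325 and 256 RU in naïve, 443 and 564 RU in TFH, 206 and 190 RU in Treg, and 436 and 331 RU in TFR cells. All 4 follicular arrays were thus above all 4 others, with the smallest gap between TFR cells at d25 and naïve cells at d12. Tcf4 exceeded naïve cells in TFH cells by 0.80 ± 0.20 (adjusted p of 0.0296 in limma) and Treg cells in TFR cells by 0.94 ± 0.20 (adjusted p of 0.0222). It was the only one of the 5 genes called in the same direction in both follicular cell types, and the difference between both changes was 0.15, with a 95% confidence interval from -0.60 to 0.89.

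Both Tcf4 calls depended on single arrays. The TFH difference was 0.48 without the d25 TFH array (adjusted p of 0.0599) and 1.11 without the d12 TFH array (adjusted p of 0.0105). It was also not called without any 1 of the naïve, Treg, or TFR arrays (0.65 to 0.94, adjusted p of 0.051 to 0.15). The TFR difference was not called without either Treg or either TFR array (0.76 to 1.12, adjusted p of 0.0682 to 0.135). In addition, TFR cells were called lower than TFH cells only without the d12 TFH array (-0.72, adjusted p of 0.0441), against -0.40 ± 0.20 with all arrays (adjusted p of 0.225) and -0.082 without the d25 TFH array (adjusted p of 0.722). The second Tcf4 probe was at the floor of 20 RU on all arrays.

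The B cell marker Ms4a1, like Tcf4, had its highest level on the d25 TFH array. So did the sum over 8 listed B cell genes, with 17360 RU against 8221 RU in d12 TFH cells. The next highest sums, 10288 and 9917 RU, were in Treg cells, where Tcf4 was lowest. Cd79b, the brightest listed B cell marker on the d25 TFH array (6869 RU), was higher in Treg cells (7108 and 7574 RU). The sum of the 8 listed markers of plasmacytoid dendritic cells was between 68030 and 107575 RU and largely due to Siglech, which was at 47581 to 83282 RU on all 8 arrays. In naïve cells that sum was 107575 and 96900 RU. Of the 8 markers, 7 were tested. In TFH against naïve cells 2 were called higher and 1 lower, where 46.5% of all genes were called. In TFR against Treg cells 1 was called higher and 1 lower, where 39.6% of all genes were called. The cells were sorted as B220-, and the part of B cells or plasmacytoid dendritic cells in the Tcf4 level was not tested. The genes most like Tcf4 were Lbhd1 (r = 0.99), Vps52 (r = 0.97), and Snx5 (r = 0.97), of which Snx5, a sorting nexin, had 5262 and 5368 RU in TFH and 4033 and 4098 RU in Treg cells.

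Tcf12, encoding HEB, differed least between the cell types. Its brighter probe (chr9:71692310-71692369, minus strand, NCBI37) was at 5927 and 6815 RU in naïve, 6359 and 8061 RU in TFH, 6786 and 8096 RU in Treg, and 5409 and 7142 RU in TFR cells. In each cell type the d25 array was above the d12 array, by 0.20 to 0.40. The day difference of 0.30 ± 0.07 had an unadjusted p of 0.00602 and was not called (adjusted p of 0.0841 in limma, and 0.0435 with an intensity trend). Day cannot be told apart from slide, since all d12 arrays were on 1 slide.

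Between cell types, the widest Tcf12 difference was that of TFR from Treg cells, with -0.25 ± 0.09 (adjusted p of 0.0836). The difference of TFH from naïve cells was 0.17, with a 95% confidence interval from -0.07 to 0.41, and 0.14 without the d25 TFH array (adjusted p of 0.36). TFR cells differed from TFH cells by -0.176 without that array (adjusted p of 0.365). No call was obtained for Tcf12 in any comparison of cell types under any alternative. The dimmer Tcf12 probe was at 311 to 698 RU, went the other way between the days (-0.37 ± 0.22), and had 698 RU at d12 and 311 RU at d25 in Treg cells. Its position in the files covers 28 bases, which does not match its length of 60, and its values are therefore not relied on. Ccnh (r = 0.99), Cdc42 (r = 0.99), and Nr1d2 (r = 0.98) were most like Tcf12. Cdc42, a small GTPase, was at 67582 to 75418 RU at d12 and at 77485 to 85004 RU at d25.

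**Figure D3:**
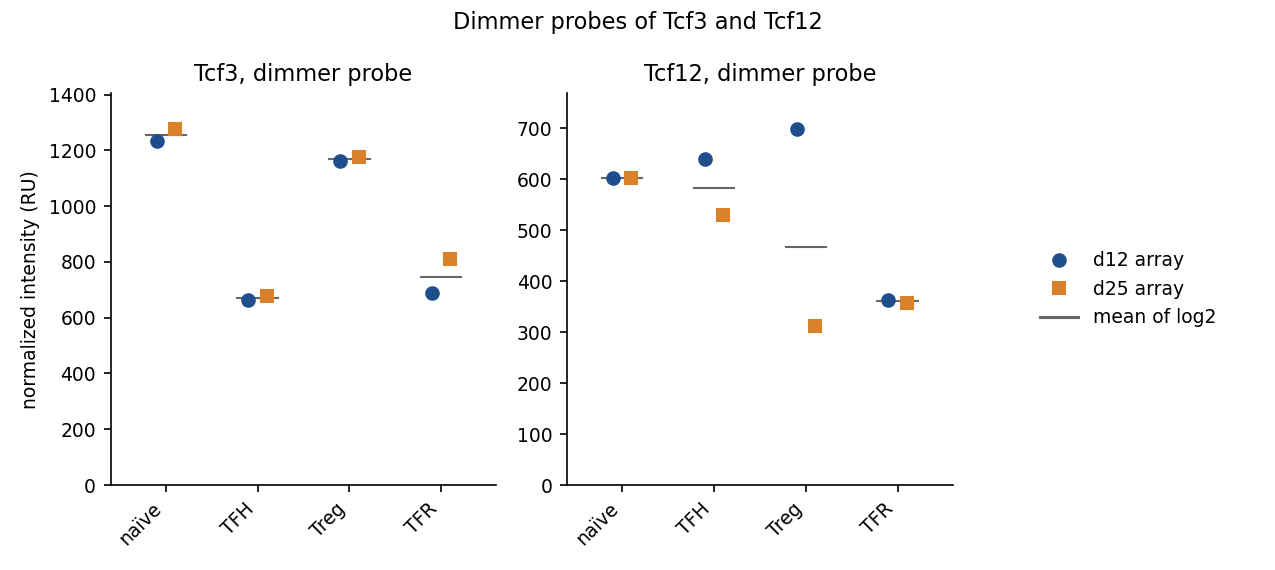
Normalized intensity (RU, linear axes starting at 0) of the dimmer probe of Tcf3 and of Tcf12 on each array, with circles for d12, squares for d25, and a bar at the mean of the log2 values. The follicular arrays had 662 to 809 RU for Tcf3 against 1160 to 1276 RU in naïve and Treg cells, and the Treg arrays for Tcf12 were apart (698 and 311 RU).

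The remaining members of the Id family had patterns of their own. Id1 was at 5134 and 5118 RU in TFH cells and at 204 to 371 RU on all other arrays. It was higher in TFH than in naïve cells by 4.31 ± 0.30 (adjusted p of 0.000705 in limma), but not in TFR compared to Treg cells (0.15 ± 0.30, adjusted p of 0.733). The difference between both changes was -4.16 ± 0.43 (adjusted p of 0.0112), a call lost without either Treg array. The difference of TFR from TFH cells was -4.22 ± 0.30 (adjusted p of 0.00189). Id4 was at the floor on all arrays.

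Class II bHLH factors are tissue-restricted partners of E proteins. Of 23 listed genes only 3 were tested. Among these, 2 were called higher and 1 lower in TFH cells, where 46.5% of all genes were called in either direction. Their median was 2.67 against -0.07 for all genes tested. TFR cells had 1 higher and 1 lower than Treg cells, where 39.6% of all genes were called. Ascl2, which drives Cxcr5 expression in TFH cells, was at 55757 and 80103 RU in TFH cells and not well above background on both naïve arrays, a difference of at least 1150-fold with an adjusted p of 8.27e-05 in limma. In TFR cells it was at 3714 and 7034 RU, and in Treg cells at 326 and 452 RU, a difference of 3.73 ± 0.25 (adjusted p of 0.00119). TFR cells had therefore less Ascl2 than TFH cells (-3.71 ± 0.25, adjusted p of 0.00162). Lyl1, a relative of the hematopoietic factor Tal1, was higher in TFH than in naïve cells by 2.67 ± 0.36 (adjusted p of 0.00463) and differed by 0.27 between TFR and Treg cells. Nhlh1 was lower in TFH (-0.93) and TFR cells (-0.74), the latter just past the threshold (adjusted p of 0.0469). Both calls were lost without either naïve array, without either TFR array, and in some other alternatives.

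Of 8 listed repressor bHLH factors of the Hes, Hey, and Bhlhe families, 5 were tested. These 5 were called higher in TFH cells, where 46.5% of all genes were called in either direction. Their median was 4.01 against -0.07 for all genes tested. In TFR cells 3 of them were called higher, where 39.6% of all genes were called, with a median of the 5 of 1.40 against -0.08. Heyl was well above background on TFH arrays alone and was tested because of them, so that the TFH count and median are in part set by the filter. The same holds for Cbfa2t3 among the cofactors, and for 2 of the described targets, Notch3 among them. Hes5, a Notch target, was at 5702 and 4917 RU in TFH cells and at 936 and 1049 RU in TFR cells, against 252 to 412 RU in naïve and Treg cells. Hey1 rose from a level not well above background in naïve cells to 2276 and 941 RU in TFH cells, at least 25.2-fold (adjusted p of 0.000265), and by 2.94 ± 0.26 from Treg to TFR cells (adjusted p of 0.00225). Bhlhe40, a factor that restrains IL10 expression, had 4855 and 6952 RU in TFR and 1504 and 2660 RU in TFH cells. It was the only one of these genes called higher in TFR than in TFH cells (1.54 ± 0.34, adjusted p of 0.0362), a call lost without the d12 TFH array or any 1 of the Treg and TFR arrays, with slide as a block, or without the filter on dim genes (adjusted p of up to 0.195). Heyl was at least 2.06-fold higher in TFH than in naïve cells (adjusted p of 0.00604), and Hes6 was higher by 0.60 (adjusted p of 0.00753, and 0.0527 without the d25 naïve array).

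**Figure D4:**
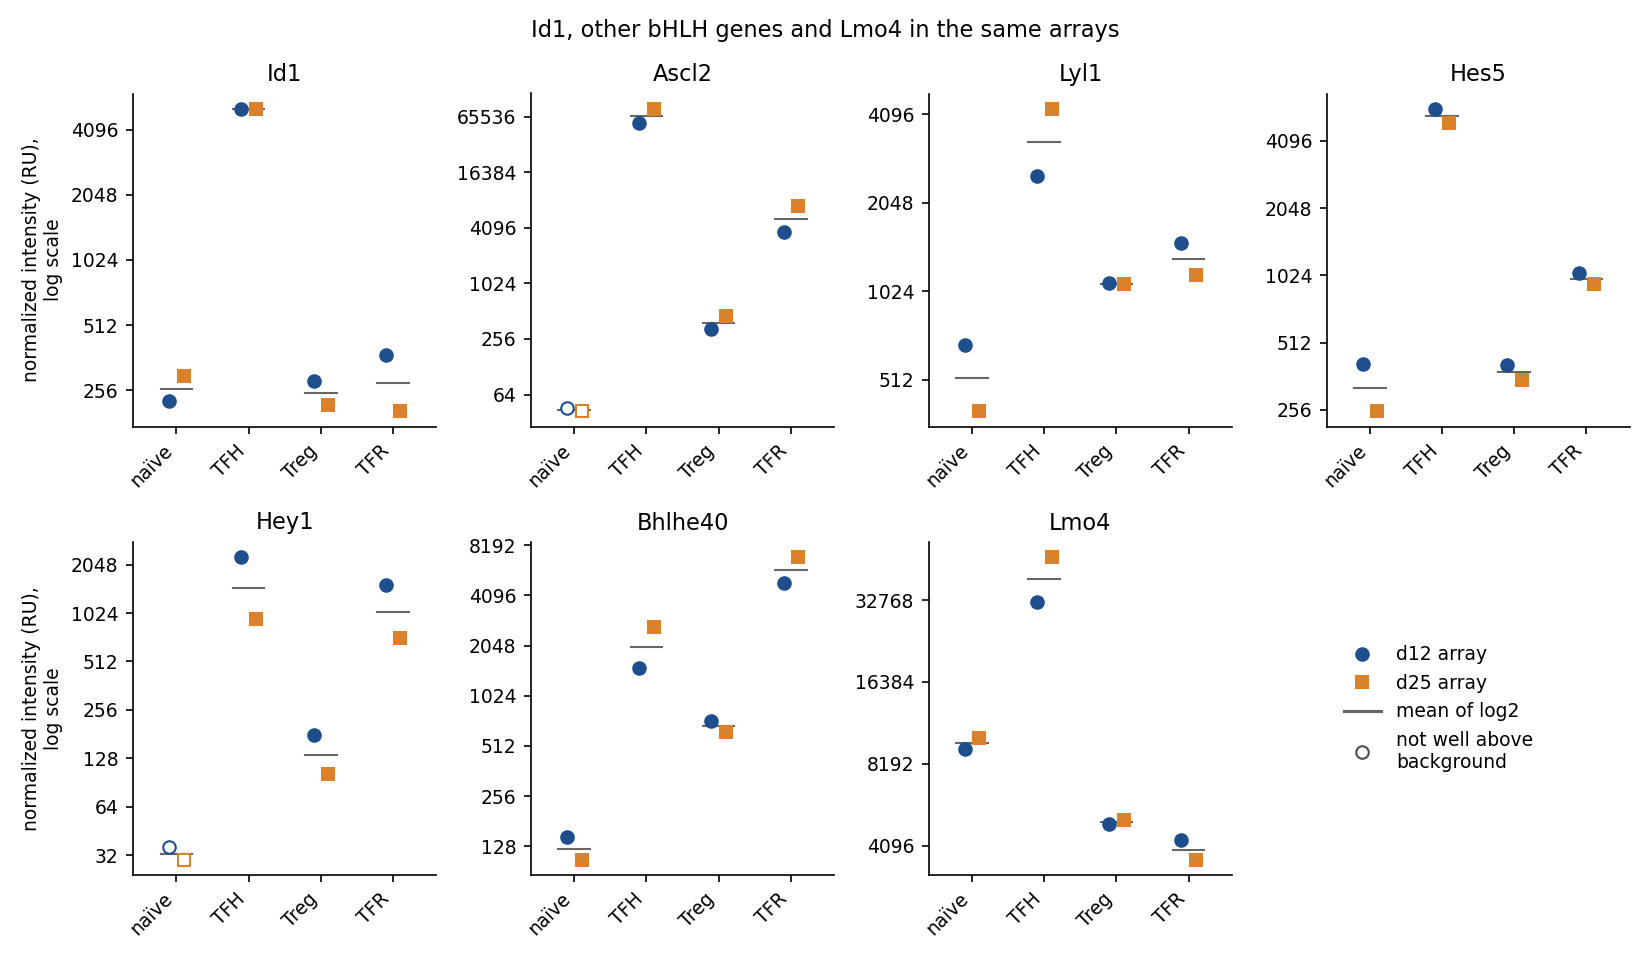
Normalized intensity (RU, log axes) of Id1, 5 other bHLH genes, and the cofactor gene Lmo4 on each array, with circles for d12, squares for d25, open symbols for arrays not well above background, and a bar at the mean of the log2 values. Id1 was high in TFH cells alone, Lmo4 highest in TFH cells, Ascl2 was intermediate in TFR cells, and Bhlhe40 was highest in TFR cells.

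Of 10 listed cofactors of E proteins, 8 were tested, with 2 called higher and 1 lower in TFH cells and 1 higher and 2 lower in TFR cells. Of all genes, 46.5% and 39.6% were called in either direction. Their medians of -0.03 and -0.26 lay near those of all genes (-0.07 and -0.08). Cbfa2t3, encoding the corepressor ETO2, was at 1086 and 958 RU in TFH cells and not well above background in the other 3 cell types, a difference of at least 17.6-fold from naïve (adjusted p of 0.000128) and of at least 19.9-fold from TFR cells. Its call in TFR cells rests on 63 and 42 RU against the floor, with no array well above background. Lmo4, a LIM-domain adaptor, was at 32308 and 47123 RU in TFH, 9317 and 10181 RU in naïve, and 3631 to 5073 RU in Treg and TFR cells. It was higher in TFH than in naïve cells by 2.0 ± 0.20 (adjusted p of 0.00169), and the difference between both changes was -2.34 ± 0.28 (adjusted p of 0.0148). The latter call was lost without either naïve, either Treg, or the d25 TFR array. Kat2b, a histone acetyltransferase, was lower in TFH (-0.74) and in TFR cells (-1.74), and Ldb1 was called lower in TFR cells (-0.72). The Kat2b call in TFH cells was lost without the d12 naïve array, the d12 TFH array, or the day term. That of Ldb1 in TFR cells was lost without the d25 Treg or either TFR array.

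Of 9 listed regulators of Id gene transcription or Id protein stability, 8 were tested. In TFH cells 4 were called higher and 1 lower, where 46.5% of all genes were called in either direction. In TFR cells 5 were called higher and 1 lower, where 39.6% were. Their medians were 0.41 and 0.86 against -0.07 and -0.08 for all genes. Egr2, which acts downstream of the T cell receptor and is known to induce Id3, was at 17577 and 20082 RU in TFH and 12677 and 17875 RU in TFR cells, against 2805 to 7260 RU in naïve and Treg cells. It was called higher in TFH (2.52 ± 0.11, adjusted p of 0.000239) and in TFR cells (1.31 ± 0.11, adjusted p of 0.00214). Egr2 and Id3 were thus both called higher in TFH than in naïve cells, whereas Egr2 alone was called higher in TFR than in Treg cells. Both were also called higher in Treg than in naïve cells, where 9.86% of all genes were called. These calls were lost in 9 (Egr2) and 6 (Id3) of 20 alternatives. Bcl6 was higher in both follicular cell types (3.95 and 2.40). Prdm1, encoding Blimp-1, and Tbx21, encoding T-bet, were called higher in TFR than in Treg cells (1.38 and 1.85), the former not without the d25 Treg array. Neither was called in TFH cells. Smurf2, a ubiquitin ligase, was lower in both (-0.93 and -1.37).

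Among 17 genes described as E protein targets, 14 were tested. In TFH cells 6 were called higher and 3 lower, with a median of 0.77 against -0.07 for all genes, of which 46.5% were called. In TFR cells 3 were higher and 2 lower, with a median of -0.30 against -0.08 for all genes, of which 39.6% were called. Cxcr5, the B cell follicle chemokine receptor, was at 185007 and 240836 RU in TFH and at 35504 and 35996 RU in TFR cells, against 1400 to 4394 RU in naïve and Treg cells. Cxcr4 rose in TFH by 3.53 ± 0.30 and in TFR cells by 2.01 ± 0.30, the latter not called without either TFR array. Dntt, encoding terminal transferase, was at 6746 and 7178 RU in naïve cells and at 117 to 953 RU on all other arrays. Its lower level in TFR than in Treg cells (-2.48 ± 0.51, adjusted p of 0.0189) was not called without either Treg or the d25 TFR array. Il7r, the IL7 receptor chain, differed by -4.73 ± 0.29 between TFH and naïve cells and by -0.63 ± 0.29 between TFR and Treg cells, of which the second was not called (adjusted p of 0.151). Notch3 was well above background in TFH cells alone, at 332 and 210 RU, at least 4.55-fold above naïve cells. Without the filter on dim genes, the calls of Kat2b and Nhlh1 in TFH cells and of Cxcr4, Dntt, Nhlh1, and Prdm1 in TFR cells were lost.

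**Figure D5:**
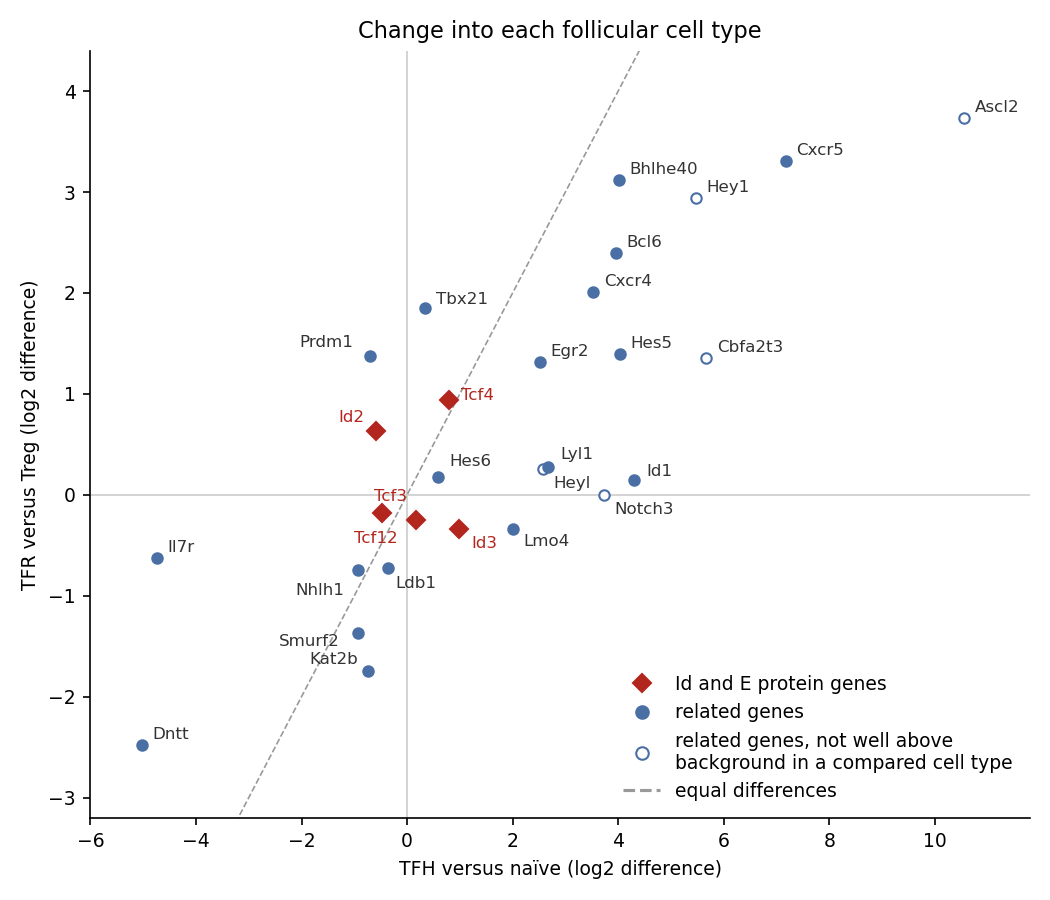
Fitted log2 difference of TFH from naïve cells (x axis) against that of TFR from Treg cells (y axis) for the 5 Id and E protein genes (diamonds) and 23 related genes (circles, open where a compared cell type was not well above background), with a dashed line at equal differences. The diamonds lay within 1 log2 unit of 0 on both axes, Id2 and Id3 in opposite quadrants, and Id1, Lmo4, and Notch3 were high on the x axis alone.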

How the data were processed

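Per array, 39429 probes with 4 spots each were measured. The authors deposited background-corrected spot intensities from Agilent Feature Extraction (version 10.7.3.1 per the labels) and normalized intensities in 1 table, obtained through geometric means of spots, quantile normalization, scaling of the 75th percentile to 1500, and a floor of 20. The spots were processed anew in the same way, leaving out those with a software flag, outside 1.42 times the interquartile range of their probe, or with a pixel coefficient of variation above 0.5. The log2 values correlated with those of the deposited table with an r of 0.9993. No column of other samples was present (0).

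A gene was tested if its brightest probe was well above background (more than 50% of its retained spots) on the d12 and the d25 array of 1 or more cell types. The model of limma 3.58.1 (lmFit, eBayes; R 4.3.3) took in all 8 arrays and added cell type and day, leaving 3 residual degrees of freedom, with a prior of 1.89. It was tested on simulated data. For a cell type with neither array well above background, a lower bound is given against the higher of the gene's own signal and the lowest signal well above background on each array. All 4 d12 arrays were on slide 1, d25 naïve and TFH on slide 2, and d25 Treg and TFR on slide 3.

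The genes and lists were chosen with earlier results of these data known. Of each list, at most the 5 genes with the largest difference in TFH or TFR cells are named, among those called between any cell types, and for each Id and E protein gene the 3 genes with the highest correlation. Alternatives changed the scaling, background correction, source table, spot exclusion, floor, dim-gene filter, probe summary, model terms, variance trend, and arrays. Probe positions are those of the files (NCBI37), promoters those of RefSeq (GRCm38.p6). Cells from Peyer's patches were not analysed here. The result for 1 listed B cell marker is not reported.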

Additional observations from a re-analysis of the deposited data

Results flagged for a closer look

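The step from Treg to TFR cells differed from the step from naïve to TFH cells in limma for Id3 and for 12 of the 23 related genes named. Of all genes, 8.51% were called. The 23 were named for calls and large changes on these same arrays, so that an excess over that share is no result about them. The difference was -1.33 for Id3, with an adjusted p of 0.034. It was negative, thus a larger rise in TFH cells or a lack of one in TFR cells, for Id1 (-4.16), Ascl2 (-6.83), Hey1 (-2.54), Hes5 (-2.64), Cbfa2t3 (-4.32), Lmo4 (-2.34), Bcl6 (-1.55), Egr2 (-1.21), Cxcr5 (-3.87), and Notch3 (-3.72). It was positive for Prdm1 (2.08) and Il7r (4.11). The values of Ascl2, Hey1, Cbfa2t3, and Notch3 depend on levels that were not well above background and are not bounds. Cbfa2t3 and Notch3 were tested because of their TFH arrays alone, so that their calls are in part set by the filter. Of these 13 calls, those of Ascl2, Cbfa2t3, and Notch3 held without each single array. The call of Hes5 was lost without the d12 TFR array, that of Cxcr5 without either TFR array, and that of Id1 without either Treg array. The remaining 7 were lost in at least 4 of the 8 fits without 1 array. With slide as a block, the calls of Id3, Bcl6, Hey1, and Prdm1 were lost, and without the filter on dim genes 11 of the 13 were, with Ascl2 and Cbfa2t3 kept.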

How the results depend on the processing

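Of 30 results of the 5 genes (6 comparisons each), 7 were called, and each of these lost its call in at least 1 alternative, but none changed its sign. The number of genes called in TFH versus naïve cells (3) was 4 with scaling alone or an intensity trend. That in TFR versus Treg cells (1) was 2 with normexp background correction, the mean of all probes, or an intensity trend, and 0 without the filter on dim genes. In Treg versus naïve cells (2) it was 0 without that filter or with slide as a block, and 1 without the day term. For the difference between both changes (1) it was 2 with normexp or the trend and 0 without the filter or with slide as a block. Between the days (0) it was 1 with the trend. Leaving out single arrays gave 0 to 3 genes for TFH versus naïve, 0 to 3 for TFR versus Treg, 0 to 1 for TFR versus TFH, 0 to 2 for Treg versus naïve, and 0 to 2 for the difference between both changes, and 0 for the days. Signs changed only for differences that were not called. With the mean of all probes Tcf12 became -0.074 in Treg versus naïve and -0.032 between the days, and with scaling alone Id3 and Tcf3 became -0.028 and -0.032 between the days. Without single arrays, TFR versus TFH ranged from -0.458 to 0.226 for Id2 and from -0.421 to 0.051 for Id3 (positive without the d25 TFH array), and from -0.016 to 0.175 for Tcf3 (negative without the d12 TFH array). The day difference of Tcf3 ranged from -0.029 (without either TFH array) to 0.047, and the difference between both changes of Tcf4 from -0.172 (without the d12 TFH array; -0.036 without the d12 TFR array) to 0.461. The cause was not tested. The labels number no replicates, and day, which the arrays of all cell types share, was a term of the model. With 2 arrays per cell type the precision is limited, and the Tcf4 probe lies nearest to background.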
